A study of Homo sapiens with 12 samples.

Results

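The genes described here are effectors of the ATF4 stress response, the branch of the integrated stress response that adapts a cell to a shortage of amino acids or to misfolded protein in the endoplasmic reticulum. Members were ATF4, ATF5, DDIT3, CEBPB, TRIB3, DDIT4, SESN2, ASNS, CHAC1 and STC2, found by their symbol in the probe annotation of the series. Of these 10 genes, 9 had a probe set, 1 each, and all 9 were among the 12774 genes tested, of 17687 genes with a named probe set. ATF5 was not analysed here.

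All cultures derived from MCF-10A, human breast epithelial cells that form no tumours, and were grown with a physiologic amount of the growth factor EGF and no other treatment. In 4 co-cultures, cells carrying HER2 L755S, a mutation in the kinase domain of a receptor tyrosine kinase, grew together with cells carrying PIK3CA E545K, a mutation in the catalytic subunit of PI3-kinase. The HER2-mutant line was grown alone in 4 cultures, and so was the PIK3CA-mutant line. Per the labels, about 75% of the cells of the co-cultures were HER2-mutant by droplet digital PCR at harvest, between day 7 and day 14, when the single cultures were harvested too. Each mutation was represented by 1 named line. Parental MCF-10A cells are not among the groups, and which line departed from the parent cannot be told. Nothing in the labels says how independent the 4 cultures of a group were, so p-values measure only the spread between these arrays.

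Values are log2 signals as deposited, where a difference of 1 is a doubling. The array medians were 6.41 to 6.49, and precision is limited by having 4 arrays in each group. A signal was called above background when it exceeded the 95th percentile of the 612 negative control probe sets of its array, a limit of 6.32 to 7.12 that was higher on the HER2-mutant arrays than on the others. All 5 epithelial markers analysed lay above that limit on every array, among them KRT5, a basal keratin, with group means of 17.13 in co-culture, 17.33 in HER2-mutant and 17.44 in PIK3CA-mutant cultures. Of the 5 fibroblast markers, PDGFRA and LUM were under it on all arrays, and so were the blood and endothelial markers PTPRC, PECAM1, VWF and CDH5, but not CD68. The collagen gene COL1A2 was above it on all 12 arrays, with means of 8.68 in co-culture, 8.58 in HER2-mutant and 8.44 in PIK3CA-mutant cultures, and COL1A1 was above it on 1 co-culture, 1 HER2-mutant and 3 PIK3CA-mutant arrays. Single genes of these marker lists nevertheless differed with the line. The epithelial marker ITGA6 averaged 13.95 in co-culture, 12.31 in HER2-mutant and 14.66 in PIK3CA-mutant cultures. EPCAM averaged 10.80, 9.15 and 11.17 in the same order. CDH1 (12.82, 13.53 and 12.81) and KRT14 (8.54, 8.85 and 8.26) were highest in HER2-mutant cultures. DCN, a matrix proteoglycan listed as a fibroblast marker, was above the limit on all 12 arrays. It averaged 8.03 in co-culture, 10.70 in HER2-mutant and 7.07 in PIK3CA-mutant cultures. CD68, a lysosomal membrane protein, was above the limit on every co-culture and PIK3CA-mutant array and on no HER2-mutant array. It averaged 7.21 in co-culture, 5.23 in HER2-mutant and 7.38 in PIK3CA-mutant cultures. The summed signal of the 5 fibroblast markers, on the log2 scale, was 9.56 to 9.75 in co-culture, 10.92 to 11.29 in HER2-mutant and 8.88 to 9.41 in PIK3CA-mutant cultures, and the part of this in the results below was not tested. For the 5 blood and endothelial markers the sums were 7.78 to 8.08 in co-culture, 6.69 to 7.38 in HER2-mutant and 7.86 to 8.20 in PIK3CA-mutant cultures, and their part was not tested either.

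ATF4 is a bZIP transcription factor whose mRNA is translated more efficiently when stress-activated kinases phosphorylate the initiation factor eIF2, and whose level is also raised by mTORC1. It pairs with C/EBP-family and other bZIP proteins on C/EBP-ATF response elements, and its targets include genes of amino acid synthesis and import, tRNA charging and feedback on the stress response. Because ATF4 is regulated in good part at translation, its mRNA level does not by itself give its activity.

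The promoter windows of the members are shown where they hold the core of such an element, TGATGNAA, in which N is any base. Windows ran from 250 bases before to 50 after each RefSeq start site (GRCh38.p14), and both strands were searched. The core was found in 2 of the 10 members, ASNS and CHAC1, against 1217 of 27305 genes with a window (4.46%) and 1270 of 35116 windows (3.62%). In the sequences below, written 5′ to 3′ on the strand of the gene, the core is in capitals.
ASNS: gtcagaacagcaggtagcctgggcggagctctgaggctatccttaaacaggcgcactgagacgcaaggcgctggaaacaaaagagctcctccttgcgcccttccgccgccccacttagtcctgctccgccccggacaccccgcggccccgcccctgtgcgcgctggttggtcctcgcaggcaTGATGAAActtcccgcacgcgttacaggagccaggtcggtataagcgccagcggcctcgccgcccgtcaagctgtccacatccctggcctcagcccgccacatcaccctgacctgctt
CHAC1: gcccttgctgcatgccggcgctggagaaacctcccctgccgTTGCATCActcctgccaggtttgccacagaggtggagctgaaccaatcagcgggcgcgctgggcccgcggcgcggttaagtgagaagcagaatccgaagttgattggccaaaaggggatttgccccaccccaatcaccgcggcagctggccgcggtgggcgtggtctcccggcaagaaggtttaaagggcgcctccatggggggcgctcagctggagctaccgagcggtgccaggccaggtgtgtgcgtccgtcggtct
The ASNS window is chr7:97872359-97872658 on the minus strand, and its core TGATGAAA begins 68 bases before the start site in the direction of the gene. The CHAC1 window is chr15:40953221-40953520 on the plus strand, and its core, read as TTGCATCA, lies on the opposite strand and begins 209 bases before the start site. The windows of the other members did not contain these letters, which says nothing about sites outside the windows or of another form. The same core was in 7 of 10 aminoacyl-tRNA synthetase genes listed because ATF4 sites are known in them, a choice that itself raises the share, in 0 of 6 other cytosolic synthetase genes, in 4 of 13 genes of amino acid supply and in 4 of 11 further stress targets with a window.

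Across the members, the HER2-mutant line alone had the lowest signals of most genes, and the co-culture had signals near or above those of the PIK3CA-mutant line. Between the single cultures, 0 of 9 members were higher and 6 of 9 were lower in HER2-mutant cells, at an adjusted p under 0.05 in limma, against 30% and 29.4% of all genes tested. At an unadjusted p under 0.05 the number of members higher was also 0. In co-culture relative to HER2-mutant cells, 8 were higher and 1 was lower, against 24.9% and 26% of all genes. In co-culture relative to PIK3CA-mutant cells, 5 were higher and 1 was lower, against 11.1% and 14.6%. The 5 became 3 without co-culture replicate 1 or 4 or PIK3CA-mutant replicate 2 or 3, and the 1 became 0 without co-culture replicate 3 or PIK3CA-mutant replicate 1. The median log2 difference of the 9 members was -1.44 between the single cultures, 1.89 in co-culture relative to HER2-mutant cells and 0.44 relative to PIK3CA-mutant cells, and the medians over all genes were 0.05, -0.05 and -0.02. Some of these rest on signals under the background limit. With such signals set to the limit, and a difference of 0 where both groups were under it, the medians of the members were -0.77 between the single cultures, 1.20 in co-culture relative to HER2-mutant cells and 0.24 relative to PIK3CA-mutant cells. The 3 comparisons share arrays, so their values are not independent of each other. The members were chosen with earlier results of these data known, so the shares of all genes are a description and no test of the set. The mean of the co-culture was the highest of the 3 groups for 6 of 9 members (17.3% of all genes), between the lines for 2 (59.1%) and the lowest for 1 (23.7%). DDIT3, under the background limit on every array, is among these 6. It is also among the 8 and the 5 members called higher in co-culture.

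**Figure D1:**
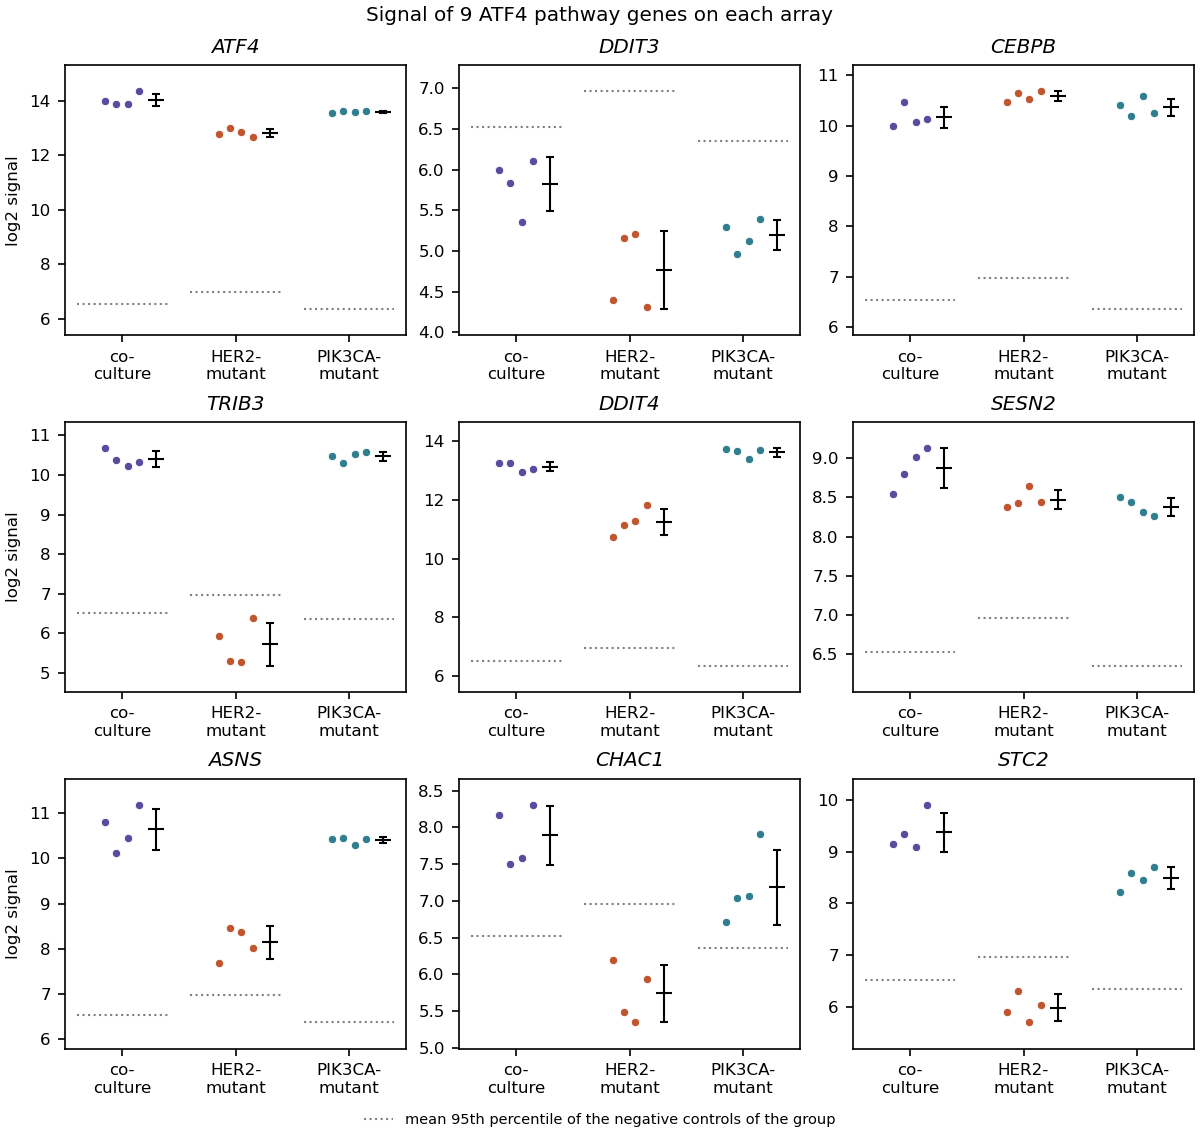
Log2 signal of the 9 members on each array, by culture group, with 1 point per array, the group mean and SD (n = 4) as a bar beside the points, and a dotted line at the mean negative control limit of the group; each panel has its own axis, which does not start at 0. The HER2-mutant points lie lowest for TRIB3, STC2, ASNS, CHAC1, DDIT4 and ATF4, and the points of DDIT3 lie under the limit in all 3 groups.

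Among the transcription factors, ATF4 itself differed between all 3 groups. Its log2 signals were 14.01, 13.89, 13.90 and 14.35 in co-culture, 12.78, 13.01, 12.87 and 12.67 in HER2-mutant cultures, and 13.56, 13.62, 13.59 and 13.63 in PIK3CA-mutant cultures. Each group lay wholly apart from the other two, with the co-culture on top and the HER2-mutant cultures at the bottom. ATF4 was lower in HER2-mutant than in PIK3CA-mutant cells by a log2 difference of -0.77 ± 0.09 (SE, limma adjusted p = 2.24e-07), a ratio of 0.588. In co-culture it was 2.30-fold higher than in HER2-mutant cells (log2 difference 1.20 ± 0.09, limma adjusted p = 2.21e-10) and 1.35-fold higher than in PIK3CA-mutant cells (0.44 ± 0.09, limma adjusted p = 0.0012).

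DDIT3, which encodes CHOP, a factor linked to cell death under prolonged stress, was dim. Its log2 signals were 5.999, 5.84, 5.36 and 6.11 in co-culture, 4.39, 5.16, 5.20 and 4.31 in HER2-mutant cultures, and 5.30, 4.96, 5.12 and 5.39 in PIK3CA-mutant cultures. All 12 values were under the negative control limit of their array, so no fold is given. The co-culture arrays lay above all HER2-mutant arrays (limma adjusted p = 0.00018) and overlapped the PIK3CA-mutant arrays, from which they differed with a limma adjusted p of 0.029. That call rested on single arrays: the limma adjusted p was 0.0787, 0.0591 or 0.0975 without co-culture replicate 1, 2 or 4, and 0.091 or 0.0674 without PIK3CA-mutant replicate 2 or 3. Between the single cultures DDIT3 did not pass (limma adjusted p = 0.084), and it did so without HER2-mutant replicate 2 (0.0325) or 3 (0.0272).

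CEBPB, a C/EBP protein that can pair with ATF4, was the 1 member that was lowest in co-culture. It had log2 signals of 9.99, 10.46, 10.08 and 10.14 in co-culture, 10.47, 10.64, 10.54 and 10.68 in HER2-mutant cultures, and 10.42, 10.20, 10.59 and 10.25 in PIK3CA-mutant cultures. The co-culture arrays were all below the HER2-mutant arrays, with 10.46 and 10.47 as the closest values, and were mixed with the PIK3CA-mutant arrays. CEBPB fell by 0.42 ± 0.12 on the log2 scale in co-culture relative to HER2-mutant cells (limma adjusted p = 0.0049). Relative to PIK3CA-mutant cells the difference of -0.20 had a 95% interval of -0.44 to 0.05 (limma adjusted p = 0.25). Between the single cultures it was 0.22, with an interval of -0.02 to 0.46 (limma adjusted p = 0.12), and passed without PIK3CA-mutant replicate 3 (0.0493).

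The members that restrain growth or the stress response itself were TRIB3, DDIT4 and SESN2. TRIB3, a pseudokinase that binds ATF4 and is itself an ATF4 target, differed most of the 9 in both comparisons with HER2-mutant cells and least between co-culture and PIK3CA-mutant cells. Its log2 signals were 10.68, 10.37, 10.23 and 10.33 in co-culture, 5.94, 5.30, 5.27 and 6.38 in HER2-mutant cultures, and 10.48, 10.31, 10.53 and 10.58 in PIK3CA-mutant cultures. The HER2-mutant arrays stood alone, under the negative control limit in all 4, while the other groups overlapped each other. With the limit in place of the HER2-mutant signals, TRIB3 was at least 11.4-fold lower in HER2-mutant than in PIK3CA-mutant cells (means 5.72 and 10.48, limma adjusted p of the fit 5.05e-16). It was at least 10.9-fold higher in co-culture than in HER2-mutant cells (means 10.40 and 5.72, limma adjusted p of the fit 1.26e-15). A p of the fit tests the difference of the deposited signals, not the bound. Between co-culture and PIK3CA-mutant cells the log2 difference was -0.07, with a 95% interval of -0.46 to 0.32 (limma adjusted p = 0.84).

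DDIT4, also called REDD1, inhibits mTORC1 through the TSC complex. It had log2 signals of 13.26, 13.25, 12.94 and 13.07 in co-culture, 10.73, 11.14, 11.27 and 11.83 in HER2-mutant cultures, and 13.72, 13.66, 13.40 and 13.68 in PIK3CA-mutant cultures. The 3 groups did not overlap, and here the PIK3CA-mutant cultures were on top. DDIT4 was lower in HER2-mutant than in PIK3CA-mutant cells by a log2 difference of -2.37 ± 0.15 (limma adjusted p = 2.65e-12), a ratio of 0.193. It was 3.70-fold higher in co-culture than in HER2-mutant cells (1.89 ± 0.15, limma adjusted p = 2.72e-10). Relative to PIK3CA-mutant cells it fell by 0.49 ± 0.15 on the log2 scale in co-culture (limma adjusted p = 0.018), a call lost without co-culture replicate 3 (0.0678), without PIK3CA-mutant replicate 1 (0.0551), or without the trend of spread with signal in the fit (0.0646).

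SESN2, a sestrin that senses leucine and restrains mTORC1, was called higher in co-culture than in each single culture, with no call between the single cultures. Its log2 signals were 8.55, 8.79, 9.02 and 9.12 in co-culture, 8.37, 8.43, 8.64 and 8.44 in HER2-mutant cultures, and 8.50, 8.44, 8.32 and 8.26 in PIK3CA-mutant cultures. The co-culture arrays lay above all PIK3CA-mutant arrays, and 1 of them lay within the HER2-mutant range. SESN2 was 1.41-fold higher in co-culture than in PIK3CA-mutant cells (0.49 ± 0.14, limma adjusted p = 0.0097) and 1.32-fold higher than in HER2-mutant cells (0.40 ± 0.14, limma adjusted p = 0.018). The call relative to HER2-mutant cells was lost without co-culture replicate 3 (0.0623) or 4 (0.0774). Between the single cultures the log2 difference was 0.09, with a 95% interval of -0.19 to 0.38 (limma adjusted p = 0.58).

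The remaining members act in metabolism or are secreted. ASNS, asparagine synthetase, is a standard readout of ATF4 activity and carries the core in its promoter window shown above. It had log2 signals of 10.81, 10.12, 10.46 and 11.19 in co-culture, 7.68, 8.47, 8.37 and 8.02 in HER2-mutant cultures, and 10.44, 10.45, 10.31 and 10.43 in PIK3CA-mutant cultures. The HER2-mutant arrays were the lowest, and the narrow range of the PIK3CA-mutant arrays fell inside the wide range of the co-culture arrays. ASNS was lower in HER2-mutant than in PIK3CA-mutant cells by a log2 difference of -2.27 ± 0.18 (limma adjusted p = 1.99e-10), a ratio of 0.207. It was 5.70-fold higher in co-culture than in HER2-mutant cells (2.51 ± 0.18, limma adjusted p = 5.84e-11). Relative to PIK3CA-mutant cells the difference of 0.24 had a 95% interval of -0.14 to 0.62 (limma adjusted p = 0.39).

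CHAC1, which degrades glutathione, also carries the core in its window. Its log2 signals were 8.17, 7.51, 7.58 and 8.30 in co-culture, 6.19, 5.49, 5.35 and 5.93 in HER2-mutant cultures, and 6.72, 7.04, 7.07 and 7.91 in PIK3CA-mutant cultures. The HER2-mutant arrays were all under the negative control limit, and PIK3CA-mutant replicate 4 lay within the co-culture range. CHAC1 was at least 1.17-fold lower in HER2-mutant than in PIK3CA-mutant cells (means 5.74 and 7.19, limma adjusted p of the fit 1.49e-05). It was at least 1.90-fold higher in co-culture than in HER2-mutant cells (means 7.89 and 5.74, limma adjusted p of the fit 7.61e-08). The bounds themselves were not tested. In co-culture it was 1.63-fold higher than in PIK3CA-mutant cells (0.70 ± 0.24, limma adjusted p = 0.032). That call was lost without co-culture replicate 1 (0.0954) or 4 (0.121), without PIK3CA-mutant replicate 1 (0.131), 2 (0.0815) or 3 (0.0765), or without the trend in the fit (0.0613).

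STC2, a secreted glycoprotein hormone of the stanniocalcin family, was highest in co-culture on every array. It had log2 signals of 9.14, 9.35, 9.09 and 9.90 in co-culture, 5.91, 6.31, 5.71 and 6.05 in HER2-mutant cultures, and 8.22, 8.58, 8.46 and 8.71 in PIK3CA-mutant cultures. The 3 groups did not overlap, and the HER2-mutant arrays were under the negative control limit. STC2 was at least 2.89-fold lower in HER2-mutant than in PIK3CA-mutant cells (means 5.99 and 8.49, limma adjusted p of the fit 2.42e-11). It was at least 5.30-fold higher in co-culture than in HER2-mutant cells (means 9.37 and 5.99, limma adjusted p of the fit 1.85e-13). It was 1.84-fold higher in co-culture than in PIK3CA-mutant cells (0.88 ± 0.18, limma adjusted p = 0.00067).

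**Figure D2:**
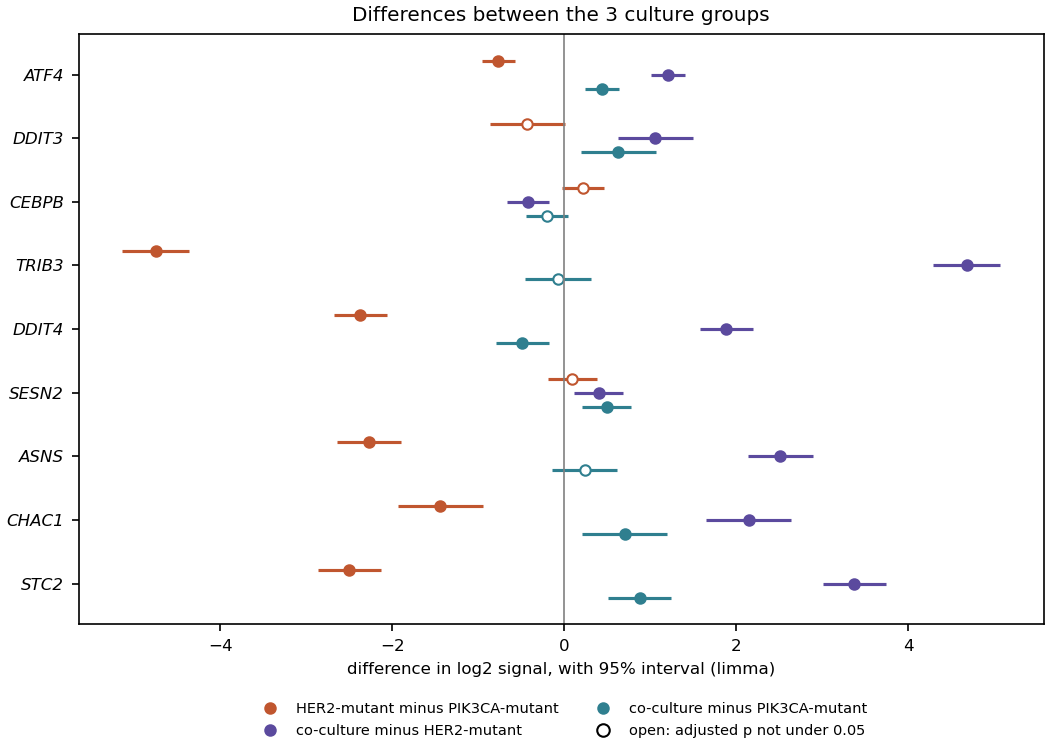
Differences in log2 signal of the 9 members in the 3 comparisons, as points with 95% intervals from limma; filled points have an adjusted p under 0.05 and open points do not. Signals are as deposited, and the bounds given in the text are not drawn. Those of TRIB3, CHAC1 and STC2 in HER2-mutant cultures and of DDIT3 in all groups were under the background limit. The intervals of TRIB3, DDIT4, ASNS, CHAC1, STC2 and ATF4 lie left of 0 for HER2-mutant minus PIK3CA-mutant and right of 0 for co-culture minus HER2-mutant.

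The co-culture held both lines, so its signals were also set against a blend, formed on the linear scale, in which HER2-mutant signal counted 75% and PIK3CA-mutant signal 25%. In a mixed culture, fewer cells of a line and less RNA per cell cannot be told apart, and neither can the line that a signal came from. Relative to the blend, 8 of 9 members were higher in co-culture and 1 was lower (limma, adjusted p under 0.05), against 18.5% and 22.3% of all genes. The 8 include DDIT3, which was under the background limit on every array. The median log2 difference of the members was 0.97, or 0.87 with signals under the background limit treated as above, and that of all genes was -0.05. For STC2, TRIB3 and CHAC1 the HER2-mutant part of the blend was set to the background limit. STC2 was then at least 3.60-fold above its blend (limma adjusted p of the fit 9.23e-11), TRIB3 at least 3.01-fold (4.14e-08) and CHAC1 at least 1.82-fold (1.17e-06). ASNS was 2.91-fold (6.05e-08), ATF4 1.96-fold (2.86e-09), DDIT4 1.81-fold (1.41e-05) and SESN2 1.34-fold (0.0088) above the blend, with limma adjusted p-values in parentheses. CEBPB lay below it, at a ratio of 0.776 (limma adjusted p = 0.0086), and DDIT3 above it (limma adjusted p = 0.00029). The same 9 calls were made for blends of 65% and of 85% HER2-mutant cells and for a blend formed on the log2 scale, but the sizes moved. The log2 difference of DDIT4 was 0.59 from the blend at 65%, 1.18 at 85% and 1.29 for the blend on the log2 scale, and that of ASNS was 1.28, 1.86 and 1.94 for the same 3 blends. Fitted to the HER2-mutant signals as deposited, TRIB3 gave 1.35, 2.39 and 3.49, and STC2 1.98, 2.61 and 2.75.

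For only 2 members did the mean of the co-culture lie between those of the lines. On the linear scale its position for TRIB3 was that of a blend in which HER2-mutant signal counted 5.05%, and for DDIT4 35.5%. The labels give about 75% of cells. Both percentages are weights of the HER2-mutant mean in a blend, not shares of the co-culture signal. TRIB3 did not pass between co-culture and PIK3CA-mutant cells (log2 difference -0.07, limma adjusted p = 0.84). Its weight was therefore not told apart from that of PIK3CA-mutant signal alone. A mean above or below those of both lines is outside every blend of the single-culture means. At an adjusted p under 0.05 for the larger p of the comparisons with each line, 2 members were above both lines and 0 below both, against 1.01% and 0.845% of all genes; at an unadjusted p under 0.05 the number below both was also 0. These were STC2 (0.88 above the PIK3CA-mutant mean on the log2 scale, limma adjusted p = 0.0066) and ATF4 (0.44 above it, limma adjusted p = 0.012), of which ATF4 did not pass without the trend in the fit (0.114). The means of CHAC1, DDIT3, SESN2 and ASNS were above both lines without passing (limma adjusted p = 0.23, 0.21, 0.24 and 1), and the mean of CEBPB was below both without passing (1).

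**Figure D3:**
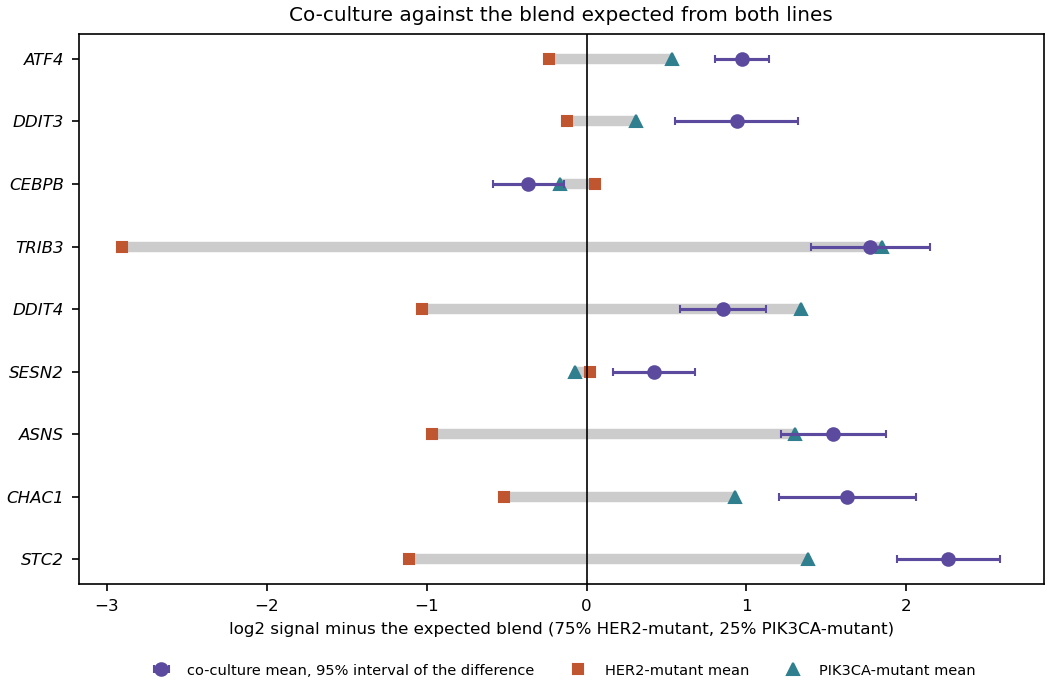
Log2 signal of the 9 members relative to the blend expected from 75% HER2-mutant and 25% PIK3CA-mutant signal, which is the line at 0. Signals are as deposited. Those of TRIB3, CHAC1 and STC2 in HER2-mutant cultures and of DDIT3 in all groups were under the background limit. The bounds given in the text are not drawn. Circles are co-culture means with the 95% interval of the difference from the blend, squares and triangles are the means of the single cultures joined by a grey bar, and 6 circles lie beyond the right end of the bar, 2 lie on it and that of CEBPB lies beyond its left end.

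The co-culture arrays were not equally high. Co-culture replicate 4 had the highest signal of its group for 6 of 9 members, and co-culture replicate 3 the lowest for 4. In the PIK3CA-mutant group, replicate 4 was highest for 5 members. How often these arrays were highest or lowest over all genes was not counted, so whether this is particular to the members was not tested. The correlation of an array with the others of its group had a median of 0.991 to 0.995 over all genes.

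Genes elsewhere in the pathway were described from lists of known roles. Of the genes acting on eIF2, which sets ATF4 translation, 16 were tested, and 4 were higher and 7 lower in HER2-mutant than in PIK3CA-mutant cells (median log2 difference 0.00), where 30% and 29.4% of all genes were. Among them EIF2B2, a subunit of the exchange factor eIF2B, differed by -1.99 (limma adjusted p = 1.16e-10), and EIF2AK1, the heme-regulated eIF2 kinase HRI, by -1.15 (2.95e-11). DELE1, which relays mitochondrial stress to HRI, was higher by 0.94 (3.53e-06). In co-culture relative to HER2-mutant cells 7 rose and 2 fell, against 24.9% and 26% of all genes. EIF2AK3, the endoplasmic reticulum kinase PERK, was higher by 0.83 (limma adjusted p = 4.6e-05, above the background limit on 3 of 4 HER2-mutant arrays). The 2 that fell became 1 without co-culture replicate 1 or 2 or without HER2-mutant replicate 3, and 4 without co-culture replicate 4. Relative to PIK3CA-mutant cells, 4 rose and 4 fell in co-culture, against 11.1% and 14.6% of all genes.

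Most targets of amino acid supply were lower in HER2-mutant cells than in PIK3CA-mutant cells. Of 17 tested, 2 were higher and 13 lower in HER2-mutant than in PIK3CA-mutant cells, against 30% and 29.4% of all genes. The median log2 difference was -0.77, or -0.52 with the background limit in place of signals under it, against 0.05 over all genes. In co-culture 13 were higher and 1 was lower than in HER2-mutant cells (median 0.96, or 0.70 with the limit), against 24.9% and 26% of all genes. The 1 lower call was lost without co-culture replicate 1 or 3 or HER2-mutant replicate 1 or 2, which left 0. SLC7A11, the cystine importer, averaged 10.58 in co-culture, 6.33 in HER2-mutant and 10.16 in PIK3CA-mutant cultures. With HER2-mutant arrays under the limit, it was at least 12.2-fold higher in co-culture than in HER2-mutant cells (limma adjusted p of the fit 3.66e-13). PHGDH, the first enzyme of serine synthesis, averaged 12.14 in co-culture, 8.42 in HER2-mutant and 10.79 in PIK3CA-mutant cultures. PHGDH was called above both lines (1.36 above the PIK3CA-mutant mean on the log2 scale, limma adjusted p = 6.56e-05). MTHFD2, a mitochondrial folate enzyme, was higher in co-culture than in HER2-mutant cells by 2.57 (limma adjusted p = 1.03e-13). In co-culture, 5 of the 17 were higher and 2 lower than in PIK3CA-mutant cells (median 0.17), against 11.1% and 14.6% of all genes.

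Aminoacyl-tRNA synthetases charge tRNAs with amino acids. Of 11 listed for known ATF4 sites, 1 was higher and 9 were lower in HER2-mutant than in PIK3CA-mutant cells (median log2 difference -1.28), against 30% and 29.4% of all genes. In co-culture 10 were higher and 1 was lower than in HER2-mutant cells (median 1.37), against 24.9% and 26%. GARS1, for glycine, averaged 14.67 in co-culture, 12.13 in HER2-mutant and 15.15 in PIK3CA-mutant cultures (limma adjusted p = 1.8e-16 for co-culture relative to HER2-mutant and 0.00039 relative to PIK3CA-mutant cells). TARS1, for threonine, averaged 13.06 in co-culture, 11.40 in HER2-mutant and 13.81 in PIK3CA-mutant cultures. Relative to PIK3CA-mutant cells 1 was higher and 2 were lower in co-culture (median 0.04), against 11.1% and 14.6% of all genes. The 1 higher was AARS1, for alanine (0.37, limma adjusted p = 0.014), and this count was 0 without co-culture replicate 4 or PIK3CA-mutant replicate 1. Of 5 other cytosolic synthetases, 4 were lower in HER2-mutant than in PIK3CA-mutant cells and 4 higher in co-culture than in HER2-mutant cells. The shares of all genes were 29.4% and 24.9%, and the medians of the 5 were -0.58 and 0.48.

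Of 13 further stress targets, 3 were higher and 8 lower in HER2-mutant than in PIK3CA-mutant cells, against 30% and 29.4% of all genes. Their median log2 difference was -0.53, or -0.36 with the background limit in place of signals under it. In co-culture 9 were higher and 2 lower than in HER2-mutant cells (median 0.50), against 24.9% and 26% of all genes. GDF15, a secreted stress hormone, averaged 9.42 in co-culture, 6.53 in HER2-mutant and 9.76 in PIK3CA-mutant cultures. It was at least 5.50-fold higher in co-culture than in HER2-mutant cells (limma adjusted p of the fit 2.73e-13). VEGFA, the angiogenic growth factor, was higher in co-culture than in HER2-mutant cells by 2.39 (limma adjusted p = 1.77e-12). KLHL24, an adaptor of a ubiquitin ligase, went the other way, with means of 9.21 in co-culture, 10.66 in HER2-mutant and 8.15 in PIK3CA-mutant cultures. Compared with PIK3CA-mutant cells, 4 were higher and 1 lower in co-culture, against 11.1% and 14.6% of all genes. NUPR1, a small stress-induced chromatin protein, was called above both lines, by 0.71 over the HER2-mutant mean (limma adjusted p = 0.00049).

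The chaperones and degradation factors of the endoplasmic reticulum respond in large part to the other branches of the unfolded protein response, but do not separate these from ATF4. HERPUD1 held the core TGATGNAA in a promoter window, as 1 of 16 genes of this list with a window (6.25%), against 4.46% of all genes with a window. Of 15 genes of the list tested, 12 were lower in HER2-mutant than in PIK3CA-mutant cells (median log2 difference -0.72), against 29.4% of all genes. In co-culture 12 were higher than in HER2-mutant cells (median 0.64), against 24.9% of all genes. In each of these comparisons the other 3 did not pass. XBP1, the transcription factor spliced by IRE1, averaged 11.42 in co-culture, 9.11 in HER2-mutant and 11.17 in PIK3CA-mutant cultures. HERPUD1, a component of the degradation pathway, was called above both lines, by 1.09 over the PIK3CA-mutant mean (limma adjusted p = 4.36e-06). Relative to PIK3CA-mutant cells 3 were higher and 1 was lower in co-culture, against 11.1% and 14.6% of all genes. The 1 lower was lost when any single array of either group other than co-culture replicate 1 or 4 was left out.

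**Figure D4:**
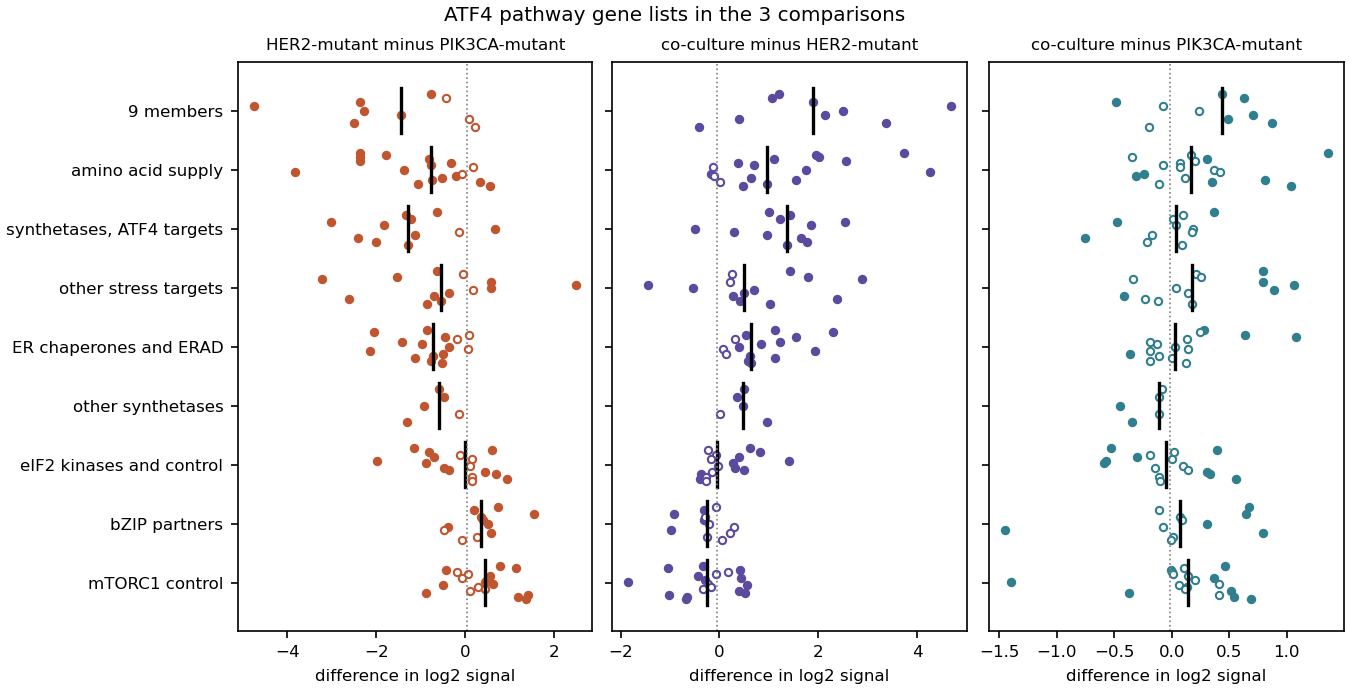
Differences in log2 signal of the members and of 8 gene lists, with 1 panel per comparison and 1 point per gene, filled where the limma adjusted p was under 0.05; bars mark list medians and the dotted line the median of all genes. Points and medians are from signals as deposited, some of them under the background limit. The list medians of amino acid supply, both synthetase lists, other stress targets and ER chaperones lie below 0 in HER2-mutant minus PIK3CA-mutant, from -1.28 to -0.53, and above 0 in co-culture minus HER2-mutant.

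Nearest in pattern to ATF4 over the 12 arrays, by Euclidean distance between log2 values centred on each gene's mean, were NLE1 (0.45), H2AC12 (0.47), FBL (0.57), CDC25B (0.59) and PEMT (0.59), where the median distance over all genes was 2.10. Of these, H2AC12 was above the negative control limit on 0, NLE1 on 4 and PEMT on 9 of the 12 arrays, so their distances rest in part on signals under it. FBL, the nucleolar methyltransferase fibrillarin, averaged 13.68 in co-culture, 12.62 in HER2-mutant and 13.47 in PIK3CA-mutant cultures. Nearest to TRIB3 were SMOC1 (1.00), NCAPH (1.02), CCNA2 (1.09), TOP2A (1.12) and FAM83D (1.18), against a median of 7.89 over all genes. SMOC1 and NCAPH, like TRIB3, were under the limit on all 4 HER2-mutant arrays, FAM83D on 3, CCNA2 on 2 and TOP2A on 1. CCNA2, which encodes cyclin A2, averaged 11.53 in co-culture, 6.90 in HER2-mutant and 12.11 in PIK3CA-mutant cultures.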

How the data were processed

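RNA of 12 MCF-10A cultures, 4 in each of 3 groups, was measured on whole-transcript arrays. The authors deposited probe-set signals on a log2 scale. The submitters' processing notes name the Transcriptome Analysis Console; its version, background correction, summarization and normalization are not given in the sources used here. Any compression of dim signals by those steps would carry over into the differences. Values were used as deposited.

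Of 24351 probe sets, 17709 were named for 1 gene, covering 17687 genes; the brightest was taken for the 20 genes with several. Probe sets had to exceed the 30th percentile of an array's signals on 4 or more arrays, which left 12774 genes. A model of the 3 groups was fitted to all 12 arrays in limma 3.58.1 (R 4.3.3) with a trend in the empirical Bayes step, two-sided, with Benjamini-Hochberg adjustment over all genes of a comparison and a threshold of 0.05. The blend used delta-method standard errors. Bounds ("at least") set the HER2-mutant signals to the 95th percentile of the negative controls. P-values beside a bound are from the limma fit to the deposited signals and do not test the bound. Scripts were tested on simulated data.

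The members and lists were chosen with earlier results of these data known. Each list names up to 4 genes past the threshold with the largest differences; fewer are printed. ATF5, without a probe set in use, was not analysed here. Same-numbered arrays of different groups deviated from their group means with correlations of -0.035 to 0.062, so the numbers were not taken as pairs. Promoter sequences come from RefSeq. The files name no genome build, and no coordinates were taken from them. Alternatives covered the filter, normalization, spread model, block, blend, margin and each array left out.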

Additional observations from a re-analysis of the deposited data

Results flagged for a closer look

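ASNS in PIK3CA-mutant replicate 3, at a log2 signal of 10.31, stood apart from the other 3 arrays of its group, which lay between 10.43 and 10.45. Its gap to the nearest of them, divided by the range of the group, was 0.883, above Dixon's 95% critical value for 4 arrays. It was the 1 such case among 27 combinations of member and group, about as many as a 95% critical value passes by chance over that number. The whole range of that group was 0.14.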

How the results depend on the processing

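No member's difference changed sign under any alternative. Testing against a margin of 0.5 on the log2 scale lowered the counts: 1560 genes higher and 1962 lower between the single cultures, 1330 and 938 in co-culture relative to HER2-mutant cells with 0 members lower, 192 and 247 relative to PIK3CA-mutant cells with 0 members higher and 0 lower, and 463 and 549 relative to the blend with 5 members higher and 0 lower. Without the trend in the fit, 84 genes were above and 63 below both lines, 1 member was above both, and 0 members were lower in co-culture than in PIK3CA-mutant cells. Quantile normalization made 1 member higher in HER2-mutant than in PIK3CA-mutant cells (CEBPB, limma adjusted p = 0.0368) and DDIT3 lower there (0.0393). Leaving out each array in turn, members higher in co-culture than in PIK3CA-mutant cells numbered 3 to 5 and members lower 0 to 1, members higher in HER2-mutant than in PIK3CA-mutant cells 0 to 1, and genes below both lines 68 to 105, the 68 without co-culture replicate 3. With the replicate block, 8 members were higher and 1 lower in co-culture than in HER2-mutant cells, 5 and 1 than in PIK3CA-mutant cells, and 6 were lower in HER2-mutant than in PIK3CA-mutant cells, and no call on a member changed. Of the 12 arrays, 2 correlated best with their own number. Of all member differences under the alternatives, 812 kept their call, 29 lost it and 5 gained it. The causes were not tested. DDIT3 was left out by a filter at the 50th percentile. Signal over background limits DDIT3 in all groups and TRIB3, CHAC1 and STC2 in HER2-mutant cells.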

Other observations

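Genes that control mTORC1, which raises ATF4 and is restrained by DDIT4 and SESN2, were counted as a list of their own. The list mixes genes that restrain mTORC1 with genes that activate it, so its counts give no direction for mTORC1. Of 18 tested, 9 were higher and 3 lower in HER2-mutant than in PIK3CA-mutant cells (median log2 difference 0.45), against 30% and 29.4% of all genes. The largest of those higher were the Rag GTPase genes RRAGB (1.43), RRAGD (1.37) and RRAGC (1.20), on the activating side, and then TSC2 (1.15). RRAGB was under the background limit on every co-culture and PIK3CA-mutant array. In co-culture 5 were higher and 8 lower than in HER2-mutant cells (median -0.26), against 24.9% and 26% of all genes. MIOS, a subunit of GATOR2, which relays amino acid signals, averaged 9.90 in co-culture, 11.75 in HER2-mutant and 11.30 in PIK3CA-mutant cultures, and was called below both lines (limma adjusted p = 5.66e-08). TSC2, a brake on mTORC1, averaged 8.81 in co-culture, 9.85 in HER2-mutant and 8.70 in PIK3CA-mutant cultures.

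Of 11 bZIP factors related to ATF4 or its partners, 7 were higher and 1 was lower in HER2-mutant than in PIK3CA-mutant cells, against 30% and 29.4% of all genes. The 1 became 0 without HER2-mutant replicate 1 or PIK3CA-mutant replicate 2, 3 or 4, and 2 without HER2-mutant replicate 2, 3 or 4. In co-culture 4 were lower than in HER2-mutant cells, against 26% of all genes, and none of the other 7 passed in limma, except 1 without co-culture replicate 2 or HER2-mutant replicate 3 or 4. FOS, an AP-1 subunit, averaged 11.49 in co-culture, 12.46 in HER2-mutant and 12.94 in PIK3CA-mutant cultures. Its call below both lines (limma adjusted p = 0.017) was lost without co-culture replicate 3, without HER2-mutant replicate 2, 3 or 4, and without the trend or with robust moderation in the fit. Of 11 relatives of the members, 3 were higher and 5 lower in HER2-mutant than in PIK3CA-mutant cells, against 30% and 29.4% of all genes. Their median log2 difference was -0.40, or 0 with the background limit in place of signals under it. In co-culture 5 were higher than in HER2-mutant cells, against 24.9% of all genes, and 1 was lower only without co-culture replicate 4. The median here was 0.25, or 0 with the limit. These calls include genes under the limit on every array, CEBPA among those higher in HER2-mutant cells and TRIB2 among those lower there and higher in co-culture. TRIB1, a pseudokinase related to TRIB3, averaged 13.54 in co-culture, 11.35 in HER2-mutant and 12.68 in PIK3CA-mutant cultures, and was called above both lines (limma adjusted p = 0.009), a call lost without PIK3CA-mutant replicate 2, and without the trend or with robust moderation in the fit. CHAC2, the glutathione-degrading relative of CHAC1, averaged 7.07 in co-culture, 5.42 in HER2-mutant and 7.55 in PIK3CA-mutant cultures, with HER2-mutant arrays under the negative control limit.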
